A study of Mus musculus with 9 samples.

Results

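The genes described here are 10 genes of mucosal antimicrobial defence and acute inflammation, followed across single mice and genotypes in the proximal colon. They are Reg3b, Reg3g and Reg4 (secreted lectins), Lcn2, S100a8 and S100a9 (proteins that withhold metals from bacteria), Saa1 and Saa3 (serum amyloid A proteins), and Nos2 and Duox2 (enzymes that make reactive nitrogen and oxygen species). Every probe set whose annotated gene symbol is one of these 10 was taken. This gave 11 probe sets of 9 genes, out of 22626 probe sets and 12393 genes with a symbol of their own on the array. No probe set carried the symbol Duox2, which was therefore not analysed here. The genes were chosen for what they do and not for how they differed between genotypes, but with results of the same arrays already known.

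The study measured total RNA of the proximal colon on Affymetrix mouse arrays, with 1 array for each of 9 mice. There were 3 mice mutant at Shmt1, 3 heterozygous and 3 wild-type. Shmt1 encodes cSHMT, the cytosolic serine hydroxymethyltransferase of folate metabolism, and the labels do not describe how the allele was altered. All 9 mice were C57Bl/6, after 10 generations of backcrossing, and 9 weeks old, and all received the AIN-93G diet made without folate and choline from weaning at 3 weeks. The time on this diet is 6 weeks in the sample characteristics and 5 weeks in the growth protocol. No mouse on a complete diet is part of the comparison, so the diet is common to all the values below. On the Shmt1 probe set that separated the genotypes most, the signals were 117, 120.0 and 113 in mutant, 298, 274 and 337 in heterozygous and 564, 576 and 644 in wild-type colons, in the order their labels imply. Another Shmt1 probe set read 246, 287 and 241 in mutant, 496, 388.5 and 370 in heterozygous and 529, 463 and 488 in wild-type colons. There the mutant mice were lowest, and heterozygous and wild-type mice overlapped.

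The epithelium of the colon holds bacteria at a distance with mucus and with secreted proteins. Reg3 lectins bind the bacterial cell wall and are made by epithelial cells, which switch them on in response to bacteria and to interleukin 22 through the transcription factor STAT3. Serum amyloid A proteins carry retinol and lipids; the liver releases them in the acute phase response, and the gut epithelium makes them when bacteria adhere to it. Lipocalin 2, the product of Lcn2, captures bacterial siderophores and so withholds iron, and S100a8 and S100a9 form calprotectin, which binds zinc and manganese and is very abundant in neutrophils. In an inflamed colon, Lcn2, S100a8, S100a9, Nos2 and Duox2 are known to be strongly induced together.

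Values are given as deposited signals, which are linear intensities. A signal was called at background on an array where it did not exceed the 90th percentile of a list of 101 probe sets. These belong to 66 genes listed as restricted to tissues other than gut. Some of them were above the limit on every array, such as a probe set of Mbp at 1109 to 1374 and a probe set of Myl7 at 81.4 to 252. Such probe sets raise the limit. This limit lay between 28.1 and 42.1 over the 9 arrays. Signals of different probe sets were not set against each other, because each probe set binds its target with its own strength. The summed signals given for marker lists add deposited signals of different probe sets within a mouse. The brightest probe sets of a list dominate its sum, and the sums are not normalized. All pairs of arrays correlated between 0.984 and 0.993 over all probe sets. Beta-actin signal was most skewed to its 3' end on the arrays numbered 1, with 3'/5' ratios of 4.84 in mutant, 4.45 in heterozygous and 5.02 in wild-type, against 3.05 to 3.75 on those numbered 2 and 2.52 to 2.73 on those numbered 3. Median signals ran the other way, at 129 to 136, 148 to 157 and 158 to 162 on arrays numbered 1, 2 and 3. Fold changes were computed after quantile normalization of log2(signal + 16) and tested with limma, with Benjamini-Hochberg adjustment over the 13576 probe sets that were bright enough. The labels call the mice of a genotype biological replicates.

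Of the 9 genes measured, 6 (Reg3b, Reg3g, Reg4, Lcn2, Saa1 and Saa3) lay above the background limit on all 9 arrays. Nos2 was at background on all 9 arrays, and S100a8 and S100a9 were at background on 7 of 9 each. By this limit, the colons of all genotypes carried signal for the Reg and serum amyloid A genes. By the same limit they carried little or none for S100a8, S100a9 and the inducible nitric oxide synthase. For S100a8 and S100a9 this depended on the limit. With the 75th percentile of the same list they were at background on 1 and 2 arrays. The plot of signals by mouse shows the split at the 90th percentile.

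**Figure D1:**
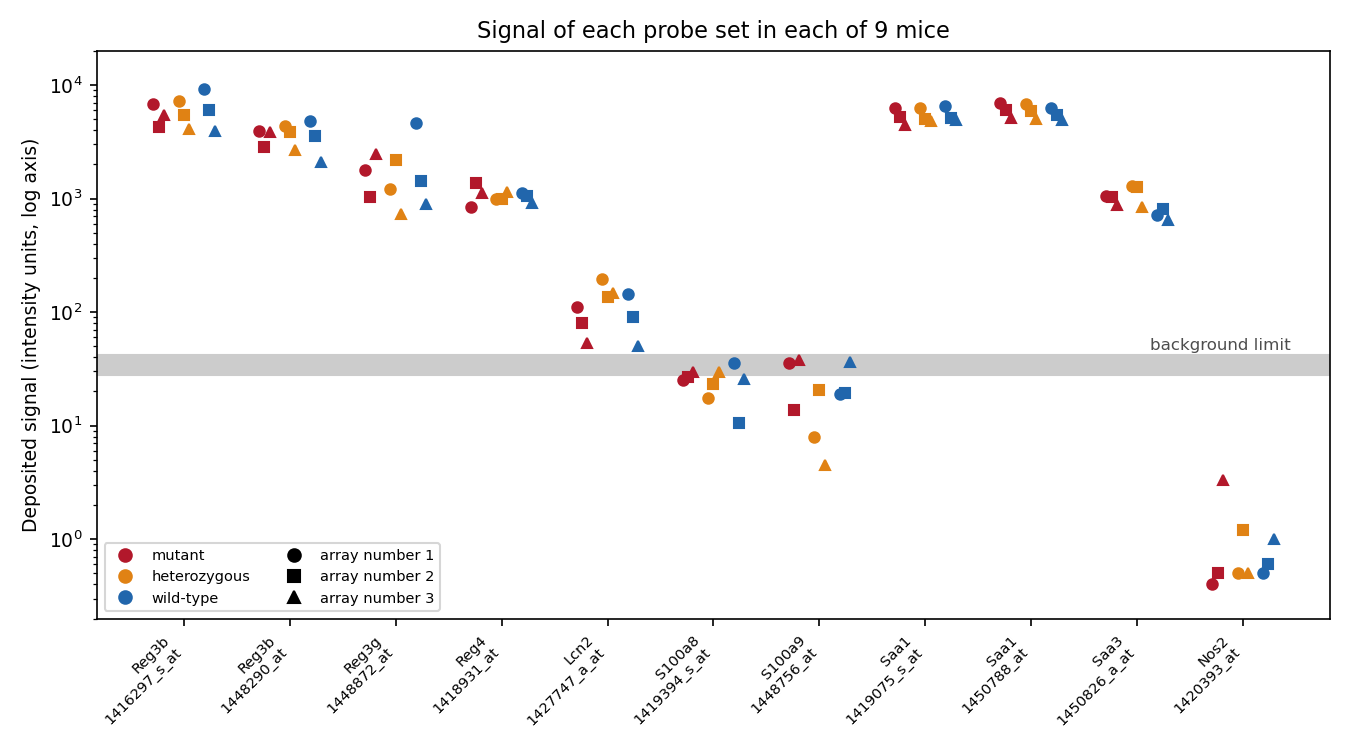
Deposited signal (intensity units, log axis) of each of the 11 probe sets in each of the 9 mice, with mutant, heterozygous and wild-type mice in 3 colours from left to right and the number of the array in its genotype as the marker shape. The grey band spans the background limits of the 9 arrays (28.1 to 42.1); all points of Nos2 lie below it, those of S100a8 and S100a9 lie in or below it, and all points of the other 6 genes lie above it.

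Reg3b, a lectin of the gut epithelium, was read by 2 probe sets, a shared one (named _s_at in the files, with probes common to several transcripts) and a unique one (named _at). On the shared probe set its signals were 6777, 4293 and 5432 in mutant, 7187, 5462 and 4129.9 in heterozygous and 9225, 5972 and 3919.8 in wild-type colons. The highest and the lowest value were both in wild-type mice, and the 3 genotypes overlapped. The means were 5500.4 ± 1243, 5593 ± 1533 and 6372 ± 2675 (SD, n = 3 each, in the same order). On the unique probe set the signals were 3959, 2848 and 3879 in mutant, 4329.7, 3874 and 2685 in heterozygous and 4812, 3577 and 2094 in wild-type colons. Here too a wild-type mouse was highest and a wild-type mouse lowest. On both probe sets the array numbered 1 had the highest deposited signal in each genotype, as on 10.1% of all tested probe sets; after normalization it did so in 2 genotypes on the shared and 1 on the unique probe set. The part of the actin 3' skew of these arrays in the signals was not tested. Both probe sets ordered the mice nearly alike, with a correlation of 0.927 over the 9 arrays on the normalized scale.

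Reg3g, the lectin best known for killing Gram-positive bacteria, varied more from mouse to mouse than any other member above background. Its signals were 1793, 1028 and 2466 in mutant, 1218, 2181 and 729.6 in heterozygous and 4586, 1425 and 890.3 in wild-type colons. The highest mouse read 6.29 times the lowest, and wild-type mouse 1 stood above all others. The SD was close to the mean in wild-type mice, with 1762 ± 719.6 in mutant, 1376 ± 738 in heterozygous and 2301 ± 1997 in wild-type colons (n = 3 each). On the log2 scale its residual SD within genotypes was 0.886, which lay at the 99.7th percentile of all probe sets tested, where the median was 0.173. For Reg3b the same figure was 0.38 on the unique and 0.323 on the shared probe set, at the 94.7th and 90th percentile.

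Mice high in Reg3b tended to be high in Reg3g, with exceptions. Heterozygous mouse 1 was second highest on the shared probe set of Reg3b (7187) but read 1218 in Reg3g, below heterozygous mouse 2 (2181). Over the 9 mice, Pearson's r between Reg3b (the shared probe set) and Reg3g was 0.829 (exact permutation p = 0.00658, adjusted p = 0.0493 over the 15 pairs of members with tested probe sets), and Spearman's rho was 0.728 (exact permutation p = 0.0313, adjusted p = 0.235). Without the 2 mice farthest from the median of Reg3b, Pearson's r was 0.807 (n = 7). Without the 3 arrays numbered 1 it was 0.866 (n = 6), and with the genotype means removed it was 0.859 (n = 9). So the relation was also present between mice of the same genotype, while the rank correlation did not pass the adjustment.

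The start regions of Reg3b and Reg3g are shown because these neighbours on mouse chromosome 6 varied together. The sequences are the 250 bases before each start in RefSeq (GRCm38.p6), at chr6:78370635-78370884 on the + strand for Reg3b and chr6:78468875-78469124 on the - strand for Reg3g. They were searched on both strands for TTCNNNGAA (bound by STAT factors), GGGANNNNCC (bound by NF-kB), TTGCNNAA (bound by C/EBP factors) and TATAAA (the TATA box). Capitals mark every match.
Reg3b: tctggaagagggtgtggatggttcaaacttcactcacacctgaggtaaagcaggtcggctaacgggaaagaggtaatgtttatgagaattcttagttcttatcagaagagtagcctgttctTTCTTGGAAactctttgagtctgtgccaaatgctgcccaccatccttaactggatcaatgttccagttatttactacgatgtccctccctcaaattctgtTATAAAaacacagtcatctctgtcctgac
Reg3g: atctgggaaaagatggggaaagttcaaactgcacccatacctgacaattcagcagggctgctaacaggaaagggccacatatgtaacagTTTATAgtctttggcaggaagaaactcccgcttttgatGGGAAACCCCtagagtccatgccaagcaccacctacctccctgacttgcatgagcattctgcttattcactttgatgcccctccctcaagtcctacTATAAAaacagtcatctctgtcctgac
Positions count back from the start, so that -1 is the base before it. Reg3b held TTCTTGGAA, a match to the STAT motif, at -129, and Reg3g held GGGAAACCCC, a match to the NF-kB motif, at -123. Both held TATAAA, at -29 and -27, and Reg3g held it also on the reverse strand at -161. Matches to the 4 motifs in the order above were present in 7.02%, 17.6%, 9.56% and 12.4% of the 32851 promoters in the same table, so a match describes the letters and no site of binding. No matches overlapped in these sequences. Aligned over their length, the 2 windows were identical at 70.0% of the aligned bases, against 59.5% for Reg3b with Saa1 and 63.7% for Reg3g with Saa3, pairs taken from different families. Gaps are left out of these percentages. The alignment of Reg3b with Reg3g held 6 gapped positions, and each pair from different families held 70.

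Reg4, a lectin of goblet and deep secretory cells of the colon, did not separate the genotypes. Its signals were 845, 1362 and 1114 in mutant, 991, 989 and 1139 in heterozygous and 1122, 1059 and 907 in wild-type colons. The extremes were 2 mutant mice, a factor of 1.61 apart, and the genotypes overlapped. Its residual SD within genotypes was 0.216 on the log2 scale, at the 67.2nd percentile of all probe sets tested. Reg4 and the 8 other goblet and deep secretory cell genes on the array stayed above background throughout, with summed signals, Reg4 included, of 38745 to 50204 in mutant, 37685 to 47303 in heterozygous and 40965 to 53483 in wild-type colons. In whole tissue, fewer cells of a type and less RNA per cell cannot be told apart.

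The Reg genes are also abundant in exocrine pancreas, so its markers were read on the same arrays. The digestive enzyme genes Prss2, Cpa1 and Ctrb1 were at background in every mouse. Reg1, the pancreatic member of the family, read 22.9 to 28.4 in mutant, 22.8 to 42.6 in heterozygous and 21.1 to 50.8 in wild-type colons and was at background on 7 of 9 arrays. Cela1, an elastase gene, was above background on all arrays (476 to 522.5, 335 to 403 and 373 to 506 in the same order).

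Saa1 was read by 2 bright probe sets, a shared (_s_at) and a unique (_at) one, which did not vary together. On the shared probe set the signals were 6237, 5193 and 4433.5 in mutant, 6250.1, 4985 and 4862 in heterozygous and 6512, 5135 and 4929 in wild-type colons. On the unique one they were 6943, 6031 and 5123 in mutant, 6816, 5879.9 and 4983 in heterozygous and 6282, 5390.4 and 4946 in wild-type colons. In each genotype and on each probe set the array numbered 1 was highest, as for Reg3b. Quantile normalization removed this order on the unique probe set, where no array numbered 1 stayed highest in its genotype. The correlation between the 2 probe sets was then 0.0817. The annotation of the shared probe set also lists a transcript of Saa2, the neighbouring gene. The signals of Saa1 and Saa2 can therefore not be fully separated. The 250 bases before the starts of Saa1 and Saa2 were identical at 95.6% of the aligned bases. These bases lie before the transcripts and do not bear on what the probes bind.

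After normalization, Saa1 varied little, with residual SDs of 0.0367 and 0.0782 on the log2 scale, at the 0.656th and 7.84th percentile of all probe sets tested. Both probe sets lie near the top of the signal range, at the 98.9th and 99.3rd percentile of mean signal on the array. Whether signals this high respond in full to a difference in RNA was not tested.

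Saa3, the serum amyloid A gene of macrophages, fat and gut epithelium, was the member on which the mice with a mutant allele stood apart from wild-type mice. Its signals were 1059, 1023 and 884 in mutant, 1288, 1256 and 838 in heterozygous and 719, 813 and 649.5 in wild-type colons. Every mutant and every heterozygous mouse lay above every wild-type mouse, with the lowest heterozygous mouse 838 and the highest wild-type mouse 813. Heterozygous and mutant mice overlapped. The means were 989 ± 92.2 in mutant, 1127 ± 251 in heterozygous and 727 ± 82.1 in wild-type colons (SD, n = 3 each). Among all tested probe sets, 157 (1.16%) had all 6 carriers of the mutant allele above all 3 wild-type mice.

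Mice high in Saa3 were also high on the unique probe set of Saa1. The shared probe set of Saa1, which correlated with the unique one at only 0.0817, was not part of this pair. Pearson's r was 0.837 over the 9 mice (exact permutation p = 0.00607, adjusted p = 0.0493 over the 15 pairs), and Spearman's rho was 0.883 (exact permutation p = 0.00308, adjusted p = 0.0461). Pearson's r was 0.808 without the 2 mice farthest from the median of Saa1 (n = 7), 0.947 without the arrays numbered 1 (n = 6) and 0.702 with the genotype means removed (n = 9). The other 13 pairs of members had adjusted p of 0.466 or more for Pearson's r in the exact permutation test.

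**Figure D2:**
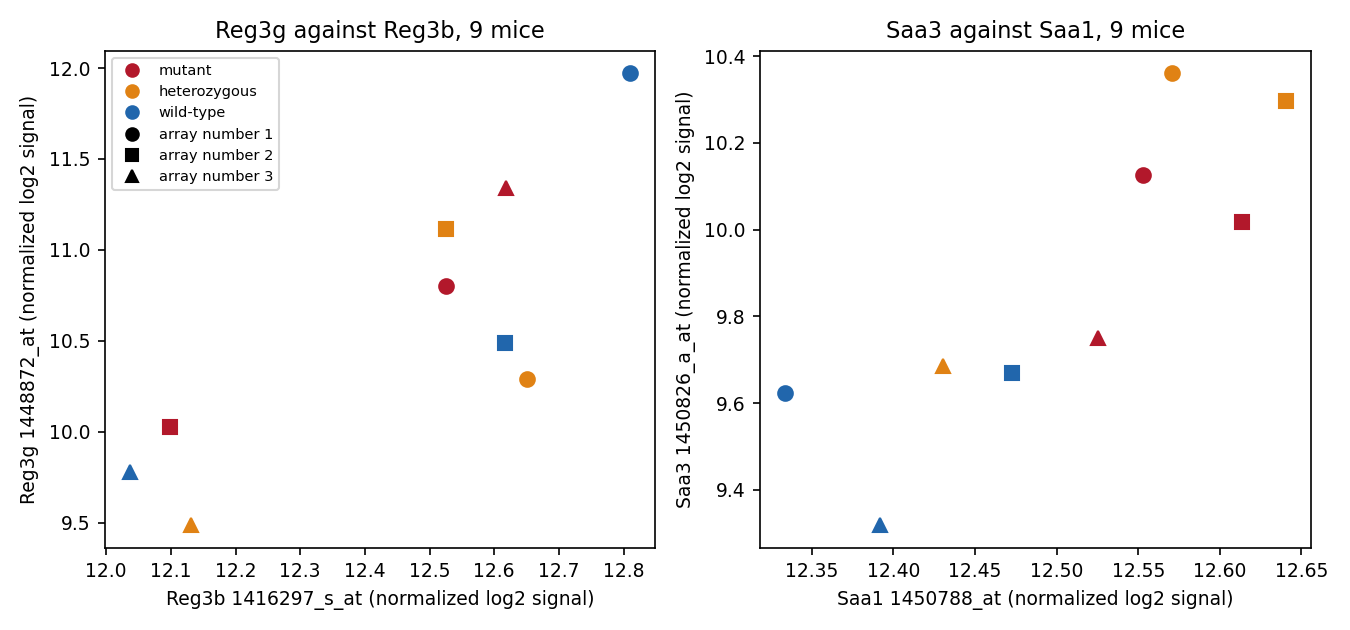
Normalized log2 signal of Reg3g against the shared probe set of Reg3b (left) and of Saa3 against the unique probe set of Saa1 (right), with 1 point per mouse, the genotype as colour and the array number as marker shape. Reg3g and Reg3b rise together with an r of 0.829 and wild-type mouse 1 at the top. Saa3 and this Saa1 probe set rise together with an r of 0.837 and the 3 wild-type mice in the lower part.

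The start regions of Saa1 and Saa3, which lie close together on mouse chromosome 7, are shown for the same comparison. They are the 250 bases before each start in RefSeq (GRCm38.p6), at chr7:46742981-46743230 for Saa1 and chr7:46715677-46715926 for Saa3, both on the - strand. Capitals mark the matches to the 4 motifs searched in the Reg3 genes.
Saa1: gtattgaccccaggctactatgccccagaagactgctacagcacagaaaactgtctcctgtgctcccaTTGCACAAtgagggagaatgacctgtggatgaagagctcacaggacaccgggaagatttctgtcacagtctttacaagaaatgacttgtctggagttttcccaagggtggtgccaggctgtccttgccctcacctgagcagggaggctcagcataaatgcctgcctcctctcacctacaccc
Saa3: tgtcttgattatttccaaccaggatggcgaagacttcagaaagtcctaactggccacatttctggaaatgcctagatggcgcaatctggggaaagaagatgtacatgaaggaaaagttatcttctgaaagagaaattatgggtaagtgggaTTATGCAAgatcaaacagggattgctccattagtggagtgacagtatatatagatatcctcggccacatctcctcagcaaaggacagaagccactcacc
Each held 1 match to the C/EBP motif, TTGCACAA at -182 in Saa1 and TTATGCAA, on the reverse strand, at -99 in Saa3. Neither held a TATAAA, a STAT match or an NF-kB match in this window. Their identity of 64.4%, with 68 gapped positions left out, was near that of the pairs from different families given above. In the other members with a sequence, Lcn2 and S100a9 each held a C/EBP match, S100a8 a TATAAA at -30, and Reg4 and Duox2 none of the 4. Nos2 was not matched to a sequence.

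Lcn2, which encodes the siderophore-binding lipocalin 2, was dim but above background. Its signals were 109.9, 80.7 and 53.9 in mutant, 198, 137 and 148.5 in heterozygous and 145, 90.5 and 49.8 in wild-type colons. All heterozygous mice lay above all mutant mice, and wild-type mice spread across both. The means were 81.5 ± 28.0 in mutant, 161 ± 32.3 in heterozygous and 95 ± 47.7 in wild-type colons (SD, n = 3 each). Lcn2 had the second widest spread of the tested members, with a residual SD of 0.584 on the log2 scale, at the 98.9th percentile. In mutant and in wild-type mice the array numbered 3, with the least actin skew, was lowest. In each genotype its array numbered 1 was highest, on the deposited and on the normalized scale, as was the case for 9.09% of all tested probe sets on the normalized scale.

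S100a8, S100a9 and Nos2 gave signals mostly at or below the background limit. The median of the probe sets behind that limit lay between 4.2 and 7.4 over the arrays, below every S100a8 signal. S100a8 read 25.4, 26.8 and 29.6 in mutant, 17.5, 23.2 and 29.8 in heterozygous and 35.7, 10.6 and 25.6 in wild-type colons. S100a9 read 35.3, 13.7 and 38.2 in mutant, 7.9, 20.5 and 4.5 in heterozygous and 19, 19.3 and 36.5 in wild-type colons. The arrays above the limit were mutant 3 and wild-type 1 for S100a8, and mutant 3 and wild-type 3 for S100a9. Nos2 read at most 3.3 in any mouse. With the 95th percentile as the limit, S100a8 and S100a9 were at background on all 9 arrays and Lcn2 on 1. With the 75th percentile, S100a8 was at background on 1 array, S100a9 on 2 and Nos2 on all 9. The call for S100a8 and S100a9 therefore depends on the limit. Signals this low do not order the genotypes, and none of the 3 genes was bright enough to be tested.

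The 11 genes of a neutrophil list that are on the array and are no members were at background in all 9 mice. Among them Mpo and Elane, which encode granule enzymes, read at most 15.6 and 5.1, and the highest single value was 31.6, for Mmp9. Summed over the 11 genes, the signals were 57.5 to 77.0 in mutant, 64.9 to 83.3 in heterozygous and 47.6 to 83.2 in wild-type colons. Of 11 macrophage genes on the array, 10 were above background in every mouse and Marco, a scavenger receptor gene, in none, with summed signals over 11 genes of 7079 to 10031, 8335 to 9452 and 8111 to 11730 in the same order; their part in the signals of Saa3 and Lcn2 was not tested. Cytokine genes of inflammation were mostly at background: 13 of 20 on the array were so in every mouse, among them Tnf, Il6, Il17a and Cxcl1.

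In mutant against wild-type colons no member passed an adjusted p of 0.05 in limma; 3 of all 13576 probe sets tested did (0.0221%). At an unadjusted p under 0.05 there were 2 of the 8 tested member probe sets, against 3.84% of all. These were Saa3 and the unique probe set of Saa1. Saa3 had a log2 fold change of 0.43 (SE 0.183), a 1.34-fold difference with a 95% confidence interval of 1.02 to 1.78 (limma, adjusted p = 0.998), with 3 of 3 mutant mice above all wild-type mice. On the deposited signals, mutants lay above wild-type without overlap for 4.04% of all tested probe sets. For Saa1 the log2 fold change was 0.16 (SE 0.0597) on the unique probe set (limma, adjusted p = 0.998) and -0.03 (SE 0.0447) on the shared one. The mutant mice were above wild-type without overlap on the normalized values of the unique probe set, as for 4.23% of all, while the deposited signals overlapped.

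The remaining members were near 0 in this comparison, with intervals of very different width. Reg3b had log2 fold changes of -0.07 and 0.14 on its 2 probe sets, Reg4 of 0.09 (fold 0.841 to 1.35) and Lcn2 of -0.12 (fold 0.523 to 1.62). Reg3g had -0.02, and its interval of 0.435- to 2.23-fold leaves room for large differences in either direction. A single mouse moved this value: without wild-type mouse 1 it was 0.59, without mutant mouse 2 it was 0.33, and without wild-type mouse 3 it was -0.51. For Lcn2 it was 0.27 without wild-type mouse 1, 0.16 without mutant mouse 3 and -0.50 without wild-type mouse 3.

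In heterozygous against wild-type colons no member passed, and none of all 13576 probe sets did (0%), while 8.01% had an unadjusted p under 0.05 in limma. Of the 8 member probe sets, 2 had one, again Saa3 and the unique probe set of Saa1. Saa3 had a log2 fold change of 0.58 (SE 0.183), a 1.49-fold difference with an interval of 1.13 to 1.97 (limma, adjusted p = 0.555). All 3 heterozygous mice were above all 3 wild-type mice, as for 6.03% of all tested probe sets. The 2 comparisons share the wild-type mice, so their values for Saa3 are not independent of each other. For Saa1 the log2 fold change was 0.15 on the unique probe set (limma, adjusted p = 0.595) and 0.02 on the shared one.

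Lcn2 had a log2 fold change of 0.71 (SE 0.37) in heterozygous against wild-type, 1.64-fold with an interval of 0.931 to 2.88 (limma, adjusted p = 0.656). It was 1.1 without wild-type mouse 1 and 0.34 without wild-type mouse 3. Reg3g had -0.45 (SE 0.536, interval 0.324- to 1.66-fold, adjusted p = 0.858 in limma). Without wild-type mouse 1 it was 0.16 and without heterozygous mouse 3 it was -0.04. Reg3b had -0.05 and 0.15 and Reg4 0.02.

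In mutant against heterozygous colons no member passed, where 3 of all probe sets did (0.0221%). Lcn2 was the member probe set, 1 of 8, with an unadjusted p under 0.05 in limma, against 7.56% of all. Its log2 fold change was -0.83 (SE 0.37), 0.562-fold with an interval of 0.32 to 0.987 (limma, adjusted p = 0.655). All 3 mutant mice lay below all 3 heterozygous mice, as for 4.59% of all tested probe sets. Without mutant mouse 3 the value was -0.55. Reg3g had 0.43 (SE 0.536, adjusted p = 0.847 in limma), and 0.02 without heterozygous mouse 3; the other values were Saa3 -0.15 (SE 0.183, adjusted p = 0.843) and Reg4 0.08. Saa3 was -0.36 without heterozygous mouse 3 and -0.027 without heterozygous mouse 1. The values of Reg3b were -0.02 and -0.01 and those of Saa1 -0.04 and 0.02.

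**Figure D3:**
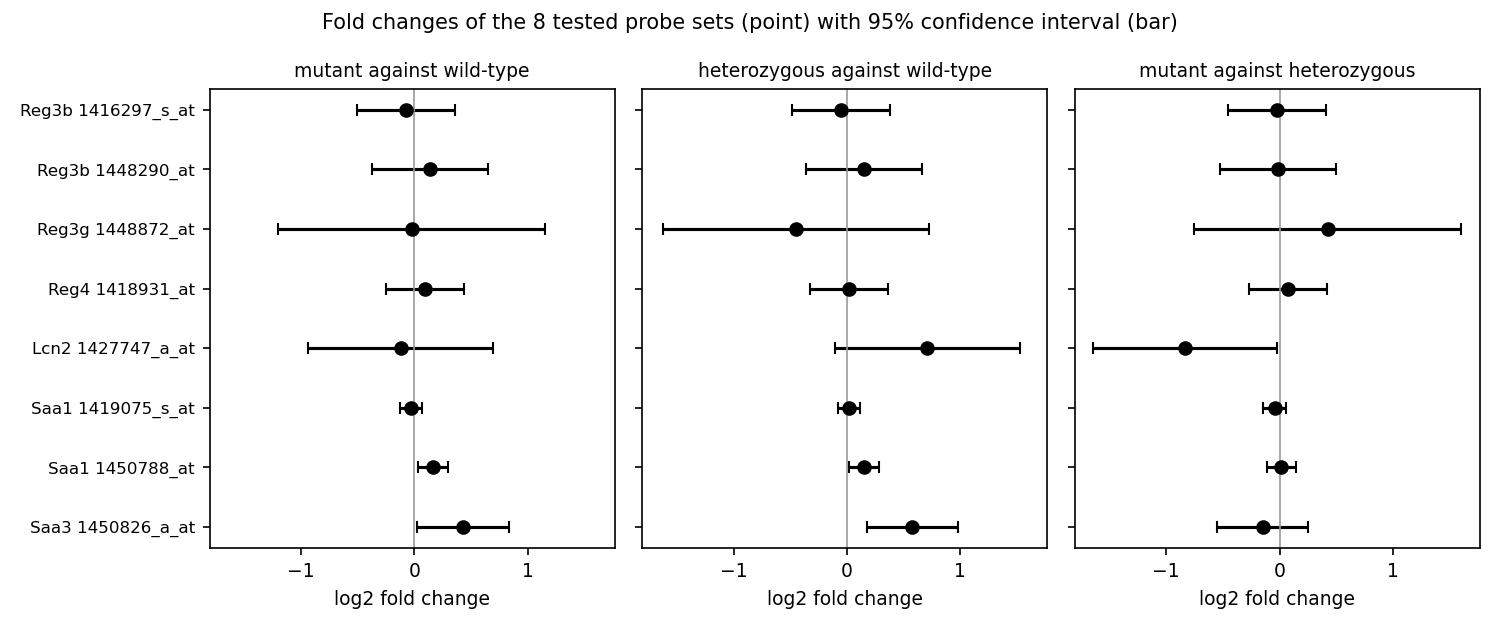
Log2 fold changes of the 8 tested member probe sets in the 3 comparisons, mutant against wild-type (left), heterozygous against wild-type (middle) and mutant against heterozygous (right), with points for the estimate and bars for its 95% confidence interval. The bars of Saa3 and of the unique (_at) Saa1 probe set lie right of 0 in the first and second panel and that of Lcn2 lies left of 0 in the third, none of which passed the adjustment over all probe sets; the bars of Reg3g are the widest and those of Saa1 the narrowest.

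The median log2 fold change over the 6 tested members, each on its probe set with the highest mean, was 0.03 in mutant against wild-type, 0.08 in heterozygous against wild-type and -0.0023 in mutant against heterozygous. Over all probe sets tested it was 0.0036, -0.0044 and 0.0013. In the same order, 3, 4 and 3 of the 6 members had a fold change above 0.

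Genes that act with the members were followed in 6 lists, and no gene of these lists passed in limma in any of the 3 comparisons. Of 24 other antimicrobial and epithelial defence genes, 22 were on the array and 13 were tested, of which 11 had a fold change below 0 in mutant mice and 9 in heterozygous mice, each against wild-type (median log2 fold change -0.09 and -0.06). Among them Retnlb, the goblet cell protein RELM-beta that acts on Gram-negative bacteria, read 6723, 5309.7 and 5373 in mutant, 2207, 3581 and 5352 in heterozygous and 7052, 5457 and 6054 in wild-type colons. For Retnlb the log2 fold change in heterozygous against wild-type mice was -0.73 (limma, adjusted p = 0.584). Slpi, a secreted protease inhibitor, and Wfdc2, a related protein, had -0.58 and -0.51 in the same comparison (adjusted p = 0.601 and 0.612 in limma).

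Among 14 other acute phase genes on the array, 7 were tested, and 6 of these had a fold change below 0 in mutant against wild-type and in mutant against heterozygous (median log2 fold change -0.22 and -0.40), against 3 of 7 in heterozygous against wild-type (0.06). Saa2, the close relative of Saa1, read 1297.5, 939 and 971 in mutant, 1823, 1547 and 990.3 in heterozygous and 826, 1077.5 and 966 in wild-type colons. Heterozygous and wild-type mice overlapped for Saa2, with a log2 fold change of 0.53 (limma, adjusted p = 0.595). As given for Saa1, the signals of Saa1 and Saa2 can not be fully separated. Serpina3n, a serine protease inhibitor of the acute phase, read 139, 122 and 85.3 in mutant, 174, 194.5 and 194 in heterozygous and 192, 137.5 and 94.2 in wild-type colons. As for Lcn2, all heterozygous mice were above all mutant mice, with a log2 fold change of -0.61 in mutant against heterozygous (limma, adjusted p = 0.659). Saa4 was at background in every mouse.

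**Figure D4:**
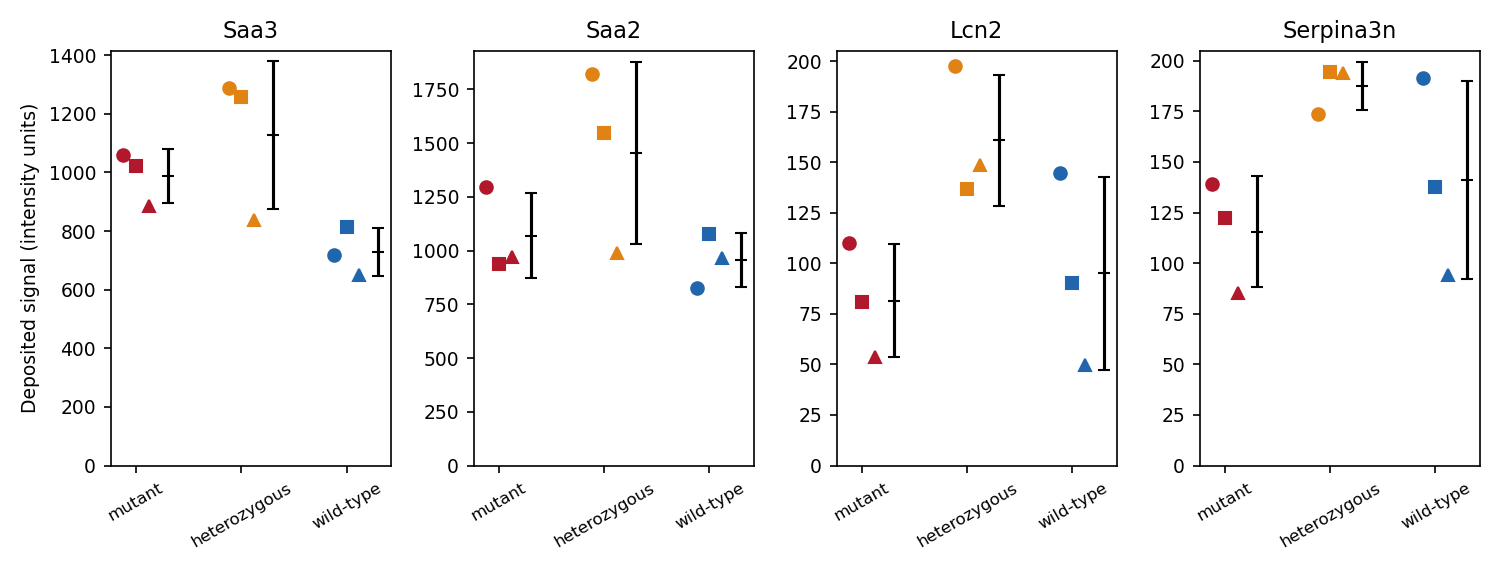
Deposited signals (intensity units, axes from 0) of Saa3, Saa2, Lcn2 and Serpina3n in mutant, heterozygous and wild-type mice, with circles, squares and triangles for arrays numbered 1, 2 and 3 and a bar for the mean ± SD of 3 mice. All carriers lie above all wild-type mice for Saa3, and all heterozygous mice lie above all mutant mice for Lcn2 and Serpina3n.

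Of the oxidase and nitric oxide genes, 13 were on the array and 6 were tested. Duoxa2, which encodes the maturation factor that Duox2 needs, read 15.8 to 44.4 in mutant, 20.1 to 23.1 in heterozygous and 22.8 to 37.9 in wild-type colons, and was at background on 7 of 9 arrays. Noxo1, the organizer of the epithelial oxidase Nox1, was bright and even, at 2008 to 2440.1 in mutant, 2325 to 2626 in heterozygous and 2241 to 2405 in wild-type colons. Gch1, which makes the cofactor of nitric oxide synthases, had a log2 fold change of 0.45 in mutant against heterozygous (limma, adjusted p = 0.575). Its signals there were 295, 287 and 319 in mutant and 200, 254 and 205 in heterozygous colons. On the other Gch1 probe set they overlapped, with 168, 162.5 and 219.5 in mutant and 144, 162.5 and 172.5 in heterozygous colons.

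Receptors and signalling genes upstream of the members were mostly present: 27 of 30 on the array were above background in every mouse. Of the 26 tested, 16 had a fold change below 0 in mutant mice and 19 in heterozygous mice, each against wild-type (median log2 fold change -0.04 and -0.13). Nfkbiz, a cofactor of NF-kB that acts on Lcn2, read 1090.0, 1515 and 1275 in mutant, 974, 1171 and 1051 in heterozygous and 1260.1, 1311 and 1323 in wild-type colons, with -0.30 in heterozygous against wild-type (limma, adjusted p = 0.589). Il6st, the shared receptor chain gp130, had -0.27 in that comparison (adjusted p = 0.614 in limma). Of the 3 cytokine genes tested, Il18, an epithelial cytokine, read 1661, 1278 and 1407 in mutant, 631, 886.5 and 1361 in heterozygous and 1054, 1136 and 1296 in wild-type colons.

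Interferon-induced genes were followed as a further arm of mucosal defence. Of 24 tested, 23 had a fold change below 0 in mutant mice and 24 in heterozygous mice, each against wild-type, with median log2 fold changes of -0.74 and -0.88, and none passed in limma. An unadjusted p under 0.05 was found for 5 of the 24 in each, against 3.84% and 8.01% of all probe sets tested. The low values lay in some of the mice: Ifit1, an interferon-induced RNA-binding protein gene named after its values were seen, read 2898, 931 and 677 in mutant, 463, 2692 and 1141.5 in heterozygous and 3586, 2053 and 2266 in wild-type colons, so that mutant 1 and heterozygous 2 lay within the wild-type range. Mx1, an antiviral GTPase, read 284, 151 and 209.7 in mutant, 107, 289.5 and 201 in heterozygous and 339, 309 and 399.8 in wild-type colons. The highest carriers were again mutant 1 and heterozygous 2. Markers of T cells and innate lymphoid cells were counted beside this list and none passed in limma, with 5 of 5 tested genes below 0 in mutant and 4 of 5 in heterozygous mice, each against wild-type (median log2 fold change -0.32 and -0.50) and summed signals over 8 genes of 928 to 2416 in mutant, 994 to 2251 in heterozygous and 1418 to 2863.5 in wild-type colons. Cd8a, the co-receptor of cytotoxic T cells and also named after its values were seen, read 134, 75.1 and 56.7 in mutant, 40.5, 266 and 175 in heterozygous and 267, 201 and 210.4 in wild-type colons, lowest in heterozygous 1 and mutants 2 and 3, as Ifit1 was. The part of T cells in these values was not tested. Of the members, 3 of 6 and 2 of 6 were below 0 in the same comparisons.

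For each tested member the 3 genes most like it were taken by Pearson's r over the 9 arrays, out of 12489 probe sets with a single gene symbol. With this many candidates and 9 arrays, high values arise in any search, so they are given as a description and with no p. Reg3b was nearest to Trim15 (r = 0.986), Arrb2 (0.92) and Cnot2 (0.895). Reg3g was nearest to Brip1os (0.924), Sos1 (0.905) and Rpap3 (0.901), and Reg4 to Fgf1 (0.929), Klb (0.925) and Tomm20 (0.903). Saa1 was nearest to Pip5k1c (0.95), Ywhaq (0.934) and Slc25a39 (0.903), and Saa3 to Tspan13 (0.964), Oaz1 (0.962) and 0610005C13Rik (0.953).

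Lcn2 was nearest to Fkbp3 (0.961), Furin (0.96) and Serpina3n (0.951), so that the third gene in its order is another gene of the acute phase list. Without the arrays numbered 1 the value for Serpina3n was 0.986 over 6 mice. These 6 were among the arrays on which Serpina3n was found, so this value is no independent check. The mice with the most Serpina3n were heterozygous 2 and 3 and wild-type 1. Heterozygous 1, the highest for Lcn2 at 198, read 174 for Serpina3n and was not among them. The mice with the least Serpina3n were mutant 3 and wild-type 3, which were also the lowest for Lcn2.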

How the data were processed

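Total RNA (about 50 ng per colon) was amplified and hybridised to Affymetrix arrays. The authors deposited linear intensities, 1 signal per probe set and array; the submitters' processing notes name GCOS, and how GCOS scaled the signals, like its version, is not stated in these sources. The members and gene lists were chosen with earlier results of these data known. Gene names came from the platform annotation: 20380 probe sets have 1 symbol, 691 several and 1555 none here. After 64 control probe sets were left out, log2(signal + 16) was quantile normalized, and probe sets with a mean at or above the 40th percentile were tested (13576 of 22626) with limma 3.58.1 in R 4.3.3 (lmFit, eBayes with trend, 9 arrays in 1 fit). P-values were adjusted over all tested probe sets in each comparison, with a threshold of 0.05. The added 16 understates fold changes of dim probe sets. The number of arrays limits the precision. Correlations between members used exact permutation tests, two-sided (scipy 1.17.1), and promoters were aligned with Biopython 1.88. Named genes are all members, Shmt1, up to 4 genes per pathway list with the smallest p, defining cell markers and the 3 genes most like each member; single background genes and motifs were chosen after values were seen. Before use, the scripts were tested on simulated data in which 50 probe sets per fold size had been changed. Over the 3 comparisons, 34 to 38% of 1.5-fold and 76 to 86% of 2-fold changes were recovered, with 3 to 11 false calls. Most changes of 1.5-fold were therefore missed. These shares do not apply to each member alike. Residual SDs of the member probe sets ran from 0.0367 (shared Saa1) to 0.886 (Reg3g) on the log2 scale, with 0.584 for Lcn2. The median of all tested probe sets was 0.173. Recovery at the residual SD of each member was not tested. Replicate numbers were not used to pair the mice in the main fit. Deviations of same-numbered arrays correlated between -0.059 and 0.463 (9 pairs), those of others between -0.507 and 0.275 (18 pairs). The highest values were those of wild-type 3 with mutant 3 (0.463) and with heterozygous 3 (0.409). Whether arrays of the same number share a batch was not tested. Alternatives covered normalization, pseudocount, filter, variance model, samples, array weights, the replicate block and single arrays left out. Nos2, S100a8 and S100a9 fell below the filter.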

Additional observations from a re-analysis of the deposited data

How the results depend on the processing

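No member passed under any alternative: of 501 member fold changes recomputed, 453 kept their sign and 48 turned it, all of these in Reg3b, Reg3g, Reg4, Lcn2 and Saa1. Saa3 kept its sign in all 3 comparisons, between 0.32 and 0.53 for mutant against wild-type mice and between 0.45 and 0.79 for heterozygous mice against the same controls, with single arrays left out. The replicate number as a block, which the main fit leaves out, left every member uncalled. For Saa3 the block gave a limma adjusted p of 0.686 for mutant and 0.171 for heterozygous mice, each against wild-type. It raised the count of all calls to 5 in mutant against wild-type and 8 in mutant against heterozygous. The filter at the 60th percentile left no value for Lcn2.

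Without the 3 arrays numbered 1, the signs that turned in mutant against wild-type were those of the shared probe set of Reg3b (0.033), Reg3g (0.55) and Lcn2 (0.00053), with 9 calls in all. In heterozygous against wild-type they were those of the shared probe set of Reg3b (0.0022), Reg3g (0.17) and the shared probe set of Saa1 (-0.0071), and in mutant against heterozygous those of both Reg3b probe sets (0.0304 shared, 0.054 unique). With array weights, the unique probe set of Reg3b (-0.089), Reg3g (0.062) and Lcn2 (0.0201) turned in mutant against wild-type, and the unique probe set of Reg3b (-0.012), Reg4 (-0.00997) and the shared probe set of Saa1 (-0.0011) in heterozygous against wild-type; the calls in all were 9 and 134. Centring on the array median turned Reg4 (-0.0107) and the shared probe set of Saa1 (-0.069) in heterozygous against wild-type, and Reg3b (0.027 shared, 0.025 unique) and the shared probe set of Saa1 (0.013) in mutant against heterozygous. The values as deposited turned the shared probe set of Saa1 in heterozygous against wild-type (-0.0405). With only the 2 genotypes compared, mutant against heterozygous had 5 calls. The causes were not tested.

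With each array left out in turn, the ranges in mutant against wild-type were -0.30 to 0.088 and -0.16 to 0.33 for Reg3b, -0.51 to 0.59 for Reg3g, -0.059 to 0.24 for Reg4, -0.50 to 0.27 for Lcn2 and -0.048 to 0.0013 for the shared probe set of Saa1. In heterozygous against wild-type they were -0.28 to 0.11 and -0.14 to 0.34 for Reg3b, -0.93 to 0.16 for Reg3g, -0.092 to 0.11 for Reg4 and -0.0045 to 0.026 for the shared probe set of Saa1. In mutant against heterozygous they were -0.17 to 0.14 and -0.18 to 0.14 for Reg3b, -0.074 to 0.22 for Reg4 and -0.042 to 0.063 for the unique probe set of Saa1. Calls over all probe sets ran from 0 to 3 in heterozygous against wild-type, with 3 without heterozygous mouse 3, and from 1 to 7 in mutant against heterozygous. There, 7 came without heterozygous mouse 3, 6 without wild-type mouse 3, 5 without wild-type mouse 1 and 1 without heterozygous mouse 1 or mutant mouse 2. With the 95th percentile as the background limit, 3 members were at background on all arrays, against 1 with the 90th and with the 75th. S100a8 and S100a9 were at background on 7 arrays each with the 90th, and on 1 and 2 with the 75th. Dim signals limit S100a8, S100a9, Nos2 and, less so, Lcn2.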

Other observations

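With no filter on dim probe sets, S100a9 had a log2 fold change of 0.78 in mutant against heterozygous (limma, adjusted p = 0.645) and -0.65 in heterozygous against wild-type (adjusted p = 0.67), from signals mostly at background.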
